A study of Mus musculus with 36 samples.

Results

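Transcript levels in brain of female mice given CP2 or vehicle, 5 libraries each, were compared across all measured genes. The libraries were taken by the sex, tissue and treatment in their labels and make up 10 of the 36 libraries of the series. The labels describe CP2 as an inhibitor of mitochondrial complex I. The series also holds 10 libraries of male brain, treated the same way, and libraries of inguinal fat. All animals were wild type and of strain C57BL/6. CP2 was given in the drinking water at 25 mg/kg/day with 0.1% PEG beginning at an age of 21 months. The controls received water with 0.1% PEG, and the series gives 26 months as the age at profiling. The tissue was a flash-frozen cross-section that took in hippocampus and cortex, so it was a mixture of regions and cell types. A lower level of a cell type's transcripts can come from fewer cells of that type in the piece or from less RNA per cell, and in bulk tissue these cannot be told apart. The labels do not state that the 5 libraries of a group are from different animals. The p-values therefore measure the spread between these libraries, which may be technical in part.

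Complex I, the NADH dehydrogenase of the inner mitochondrial membrane, passes electrons from NADH into the respiratory chain and pumps protons that drive ATP synthesis. Most of its subunits are encoded in the nucleus and the others in the mitochondrial genome. Neurons depend on this chain for most of their ATP, and partial loss of its activity is known to engage AMPK, stress responses and mitochondrial turnover in many cell types. The adult brain also keeps sharp regional differences in gene expression: striatal projection neurons express dopamine receptors and DARPP-32, thalamic relay neurons express Tcf7l2 and Plekhg1, and the choroid plexus makes transthyretin.

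Total counts were 42.8 to 52.3 M (mega) in the CP2 libraries (47.1 ± 4.28 M, SD, n = 5) and 37.8 to 46.3 M in the vehicle libraries (40.6 ± 3.36 M, n = 5), and the 10 highest genes took 2.75% to 3.33% of each library. Every library had 32393 to 56333 counts of Xist and at most 2 counts of any of the 4 Y-linked genes checked, which matches the female label. Values are CPM, a gene's count relative to the TMM-scaled size of its library, differences are log2 values of CP2 minus vehicle with their standard error (SE) from edgeR, and adjusted p-values are over the 19316 genes tested, with a threshold of 0.05. Libraries carry the s number of their title: s454, s491, s492, s660 and s664 had CP2 and s631, s640, s641, s642 and s643 had vehicle. The vehicle libraries s640 and s643 stood apart from the other 3 in regional markers: s640 lay with the CP2 libraries, and s643 lay farthest from them. Differences named below that moved by over 1.5 times without either are also given without it, other than list medians near 0.

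No gene passed the threshold. edgeR called 0 of 19316 genes (0%), and the smallest adjusted p was 0.296. An unadjusted p under 0.05 was found for 1910 genes, 975 higher with CP2 (5.05% of those tested) and 935 lower (4.84%), where 965.8 in all would come by chance. In 199 genes all 5 CP2 libraries lay above all 5 vehicle libraries (1.03%), and in 155 genes they all lay below (0.802%). The count depended on the tool and on s640: DESeq2 called 45 genes (19 higher, 26 lower), limma-voom with sample quality weights called 95 (63 higher, 32 lower), with 28 shared between them, and edgeR without s640 called 18 (8 higher, 10 lower). The 6 genes called in all 3 of these were Cnr1, Lrrc10b and Meis1, which were lower with CP2, and Plekhd1, Plekhg1 and Ramp3, which were higher.

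Markers of striatal projection neurons made up the group with the lowest levels relative to vehicle. Drd1a, the dopamine D1 receptor gene (ENSMUSG00000021478, mm10 chromosome 13, 54051186 to 54055658), was at 37.5, 36.4, 38.7, 38.7 and 46.6 CPM in the CP2 libraries s454, s491, s492, s660 and s664. In the vehicle libraries s631, s640, s641, s642 and s643 it was at 94.1, 49.2, 90.3, 67.1 and 154 CPM. The CP2 libraries were close together and below every vehicle library, while the vehicle libraries were spread widely, with s640 lowest and s643 highest. The log2 difference was -1.20 ± 0.27, or 2.30-fold lower (edgeR adjusted p = 0.296).

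Ppp1r1b, which encodes DARPP-32, the dopamine-regulated inhibitor of protein phosphatase 1 (chromosome 11, 98348404 to 98357796), was at 276, 191, 193, 241 and 289 CPM with CP2. With vehicle it was at 389, 302, 543, 338 and 814 CPM, so the groups did not overlap here either (-1.0 ± 0.25). Tac1, the substance P precursor of D1 neurons, was the third striatal gene without overlap, at 41.1 to 55.1 against 65.0 to 171 CPM (-1.0 ± 0.29). The markers of D2 neurons were lower on average with overlap: Drd2, the D2 receptor, was at 13.3 to 22.7 against 16.3 to 63.0 CPM (-0.93 ± 0.29), Adora2a, an adenosine receptor, at 12.1 to 30.3 against 18.9 to 93.1 CPM (-1.01 ± 0.36), and Penk, the enkephalin precursor, at 173 to 235 against 209 to 588 CPM (-0.83 ± 0.23). In all 3 genes the lowest vehicle library was s640. The phosphodiesterase gene Pde10a was at -0.98 ± 0.28 and the signalling regulator Rgs9 at -0.96 ± 0.30. Without s643 Adora2a was at -0.55 and Rgs9 at -0.63.

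Of 18 striatal genes 17 were lower with CP2 and the transcription factor gene Six3 was not (0.05 ± 0.18). Their median difference was -0.94, where the median of all genes tested was 0.008. All 17 had an unadjusted p under 0.05, and none passed the adjusted threshold. The mean log2 CPM of the list was 5.10 to 5.70 in the CP2 libraries and 5.49 to 7.12 in the vehicle libraries, with 5.49 in s640 and 7.12 in s643. The summed level of the list was 1367 to 1976 CPM with CP2 and 1759 to 5321 CPM with vehicle. Without s643 the median was -0.62, and without s640 it was -1.10.

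Genes of cholinergic neurons, which lie in the striatum and the basal forebrain, were lower as well. The choline transporter gene Slc5a7 was at 12.5, 10.3, 14.9, 21.3 and 12.8 CPM with CP2 and at 31.2, 19.1, 30.1, 24.2 and 34.3 CPM with vehicle (-0.95 ± 0.25, edgeR adjusted p = 0.296). Its groups overlapped through the CP2 library s660 and the vehicle library s640. Chat, the enzyme that makes acetylcholine, was at -0.87 ± 0.25 and Lhx8, a transcription factor of these neurons, at -1.20 ± 0.34. All 6 tested genes of the list were lower, 3 of them at an unadjusted p under 0.05, with a median of -0.69.

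Thalamic transcripts lay on the other side. Plekhg1, a gene of relay neurons that encodes a guanine nucleotide exchange factor (ENSMUSG00000040624, chromosome 10, 3740364 to 3967303), was at 80.0, 82.1, 72.6, 50.4 and 66.0 CPM with CP2. With vehicle it was at 34.1, 61.4, 30.3, 36.3 and 23.0 CPM, where s640 was the 1 library above the lowest CP2 value (0.92 ± 0.22, 1.90-fold, edgeR adjusted p = 0.296). Rgs16, a regulator of G protein signalling (chromosome 1, 153740349 to 153745468), was at 28.3 to 30.1 CPM in all 5 CP2 libraries and at 17.5, 24.1, 18.1, 22.5 and 9.81 CPM with vehicle. It was the 1 thalamic gene whose groups did not overlap (0.65 ± 0.23).

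Tcf7l2, the transcription factor that specifies thalamic excitatory neurons, was at 28.7 to 52.1 CPM with CP2. With vehicle it was at 40.5 CPM in s640 and 8.37 to 20.9 CPM in the other 4 libraries (0.96 ± 0.39). Prkcd, a protein kinase C gene strong in relay nuclei, had 57.3 to 165 CPM with CP2 against 125 CPM in s640 and 21.1 to 51.8 CPM in the others (0.98 ± 0.41, and 1.55 without s640). Ramp3, a receptor activity-modifying protein (1.0 ± 0.26), and Lef1, a Wnt-pathway transcription factor (0.81 ± 0.23), had the same arrangement. All 17 thalamic genes were higher, with a median of 0.71 and 9 at an unadjusted p under 0.05. The mean log2 CPM of the list was 4.70 to 5.27 with CP2 and 3.20 to 5.17 with vehicle, with 5.17 in s640 and 3.20 in s643, and its summed level was 799 to 1163 against 341 to 1095 CPM. Without s640 the median was 0.93, and without s643 it was 0.56.

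**Figure D1:**
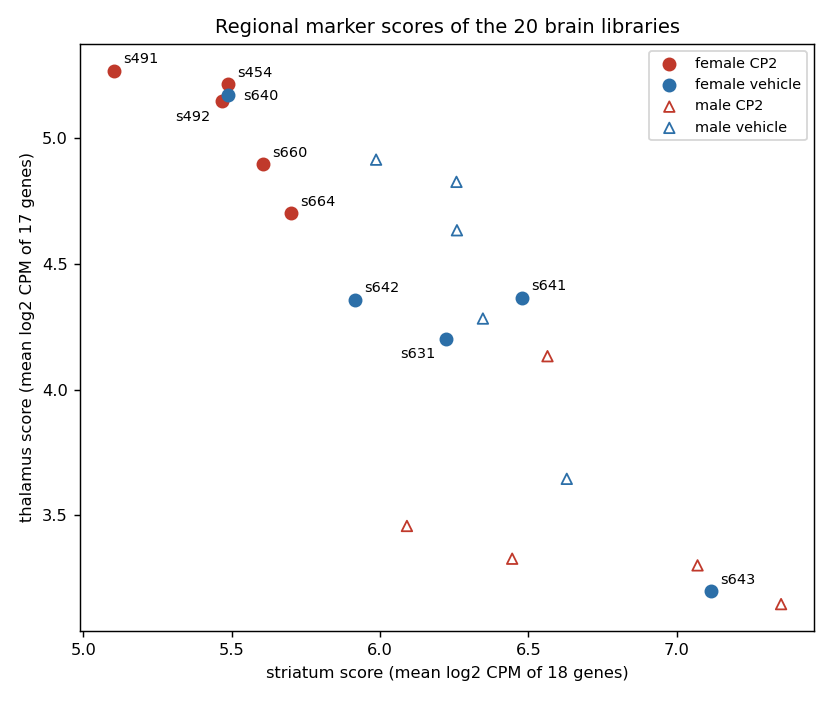
Mean log2 CPM of 18 striatal genes (horizontal axis) against that of 17 thalamic genes (vertical axis) in the 20 brain libraries, with filled circles for females, open triangles for males, red for CP2 and blue for vehicle. The 5 female CP2 libraries sit at the upper left with vehicle library s640, and vehicle library s643 lies at the lower right with a thalamus score of 3.20.

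The mean scores of these 2 lists differed between the female groups, and both scores of the vehicle library s640 lay within the CP2 range. With the striatal and thalamic scores of each library as covariates, edgeR called 0 genes, the striatal median was 0.04 and the thalamic median 0.09, as these scores hold the same genes. Drd1a was then at -0.32 and Plekhg1 at 0.40, and the cholinergic median was -0.10. The part of regional makeup in the other differences was not tested beyond the values with these covariates given beside them.

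The L number in the titles, whose meaning is not stated, was 4 or 5 in the CP2 libraries and 4, 5 or 6 in the vehicle libraries. Among the libraries with L number 5, which were 4 with CP2 and 2 with vehicle (s642 and s643), the striatal median was -1.13, the thalamic median 1.05, the myelin median 0.48 and the complex I median 0.01. This set lacks s640 and keeps s643, so the L number cannot be told apart here from the choice of vehicle libraries. Leaving out s640 alone gave a striatal median of -1.10 and a thalamic median of 0.93.

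Hypothalamic, habenular and midbrain genes were higher on average. The score of the hypothalamic list varied more between libraries of a group (pooled SD 0.82) than those of the striatal (0.46) and thalamic lists (0.53). Hdc, the histidine decarboxylase of histaminergic neurons, was at 6.57 to 17 CPM with CP2, at 12.5 CPM in vehicle s640 and at 3.30 to 4.67 CPM in the other 4 vehicle libraries (1.11 ± 0.38, edgeR adjusted p = 0.366). Of 20 hypothalamic genes 18 were higher, with a median of 0.52 and 1 at an unadjusted p under 0.05. Members included the melanin-concentrating hormone gene Pmch (1.28 ± 1.35), the orexin gene Hcrt (1.37 ± 1.05) and the vasopressin gene Avp (0.89 ± 1.13), each with an SE about as large as its difference. The list score was 2.37 to 3.79 with CP2, 2.50 to 3.02 in 4 vehicle libraries and 0.51 in s643. The median was 0.30 without s643, 0.27 without the CP2 library s492, and -0.40 with the 2 regional scores as covariates. Habenular genes, among them the nicotinic receptor subunit Chrnb4 (0.82 ± 0.31), were higher in 7 of 8 cases (median 0.41, and 0.67 without s640). All 8 genes of midbrain and raphe monoamine neurons were higher (median 0.33), with a median of 0.15 without s492.

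Choroid plexus transcripts were higher with CP2 for all 16 genes, with a median of 0.56, and none reached an unadjusted p under 0.05. The transthyretin gene Ttr averaged 2189 CPM with CP2 and 1301 CPM with vehicle (0.75 ± 1.08), and the prolactin receptor gene Prlr averaged 82.7 against 48.4 CPM (0.77 ± 0.41). The list score was 4.11 to 5.85 with CP2 and 3.65 to 5.19 with vehicle, so the groups overlapped over most of their range, and the median with the 2 regional scores as covariates was 0.01. The median was 0.31 without the CP2 library s664 and 0.90 without the vehicle library s631, and Ttr was at 0.39 and Prlr at 0.42 without s664.

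**Figure D2:**
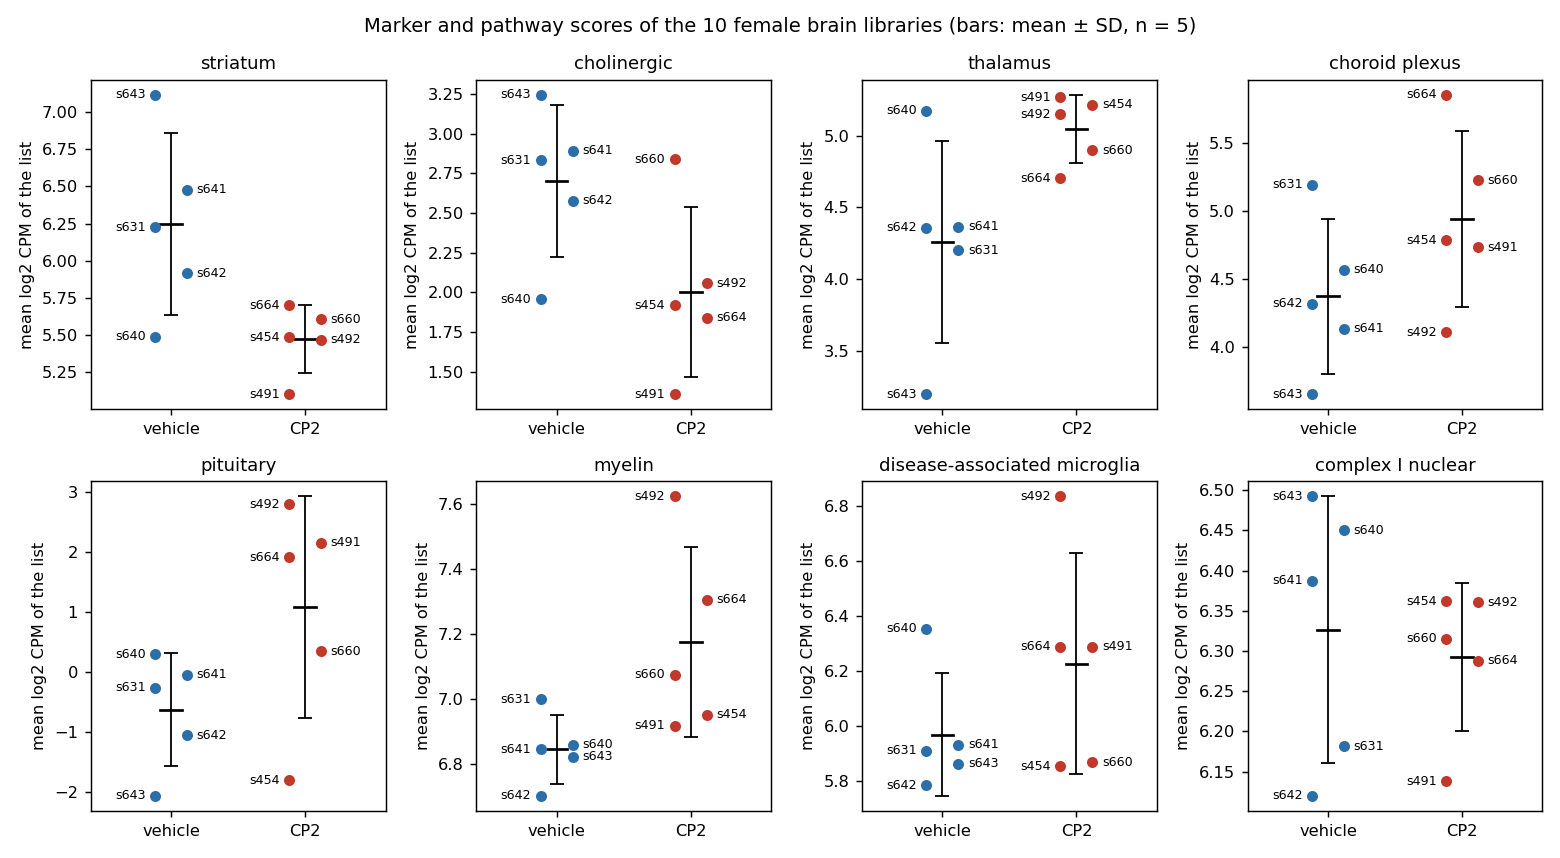
Mean log2 CPM of 8 gene lists (vertical axes) in the 5 vehicle (blue) and 5 CP2 (red) female brain libraries, with the group mean ± SD as a bar and each library named. The striatum and thalamus panels place s640 among the CP2 libraries, the myelin panel shows s492 highest at 7.62, and the complex I panel spans 6.12 to 6.49 with full overlap.

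Transcripts of pituitary hormones were detected at very unequal levels, which is shown with the promoter of the gene that had the most of them. Prl encodes prolactin, made by lactotroph cells of the anterior pituitary, and its promoter is bound by the pituitary factor POU1F1 (Pit-1). The sequence below is RefSeq's for build GRCm38.p6, chr13:27057320-27057619, plus strand, from 250 bases before the start to 50 after it. Capitals mark matches to TATNCAT on either strand (ATGNATA on the reverse), a core of the sites this factor binds.
Prl promoter: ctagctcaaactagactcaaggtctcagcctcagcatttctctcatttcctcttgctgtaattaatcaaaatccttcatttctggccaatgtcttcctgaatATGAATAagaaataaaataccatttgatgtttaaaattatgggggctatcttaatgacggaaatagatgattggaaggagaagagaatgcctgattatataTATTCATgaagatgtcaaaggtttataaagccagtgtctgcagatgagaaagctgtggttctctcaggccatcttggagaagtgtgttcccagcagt
The 2 matches begin 148 and 47 bases before the start, and 2903 of 32851 promoters of this length (8.84%) hold at least 1.

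Prl had 2, 3048, 15932, 40 and 4500 counts in the CP2 libraries s454, s491, s492, s660 and s664. In the vehicle libraries s631, s640, s641, s642 and s643 it had 304, 702, 67, 43 and 14 counts. In CPM it was at 93.2 ± 121 with CP2 and 5.83 ± 7.63 with vehicle (SD, n = 5 and 5), so the CP2 group held both the 3 highest libraries and the lowest. The log2 difference was 4.01 ± 1.77 (edgeR adjusted p = 0.470), and 2.88 without s492.

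Gh, the growth hormone gene, which the low-count filter removed, had 0, 17, 97, 0 and 112 counts with CP2 and 3, 7, 4, 2 and 0 with vehicle. Pou1f1 itself had 0, 1, 11, 0 and 5 counts with CP2 and 0, 2, 2, 1 and 0 with vehicle. The same 3 CP2 libraries, s491, s492 and s664, thus had the most Prl and Gh. Pomc, the precursor of ACTH and β-endorphin, which hypothalamic neurons make as well, was at 34.5 CPM in s491 and at 1.0 to 5.92 CPM in the other CP2 libraries, against 0.206 to 1.86 CPM with vehicle (3.43 ± 0.84, edgeR adjusted p = 0.296). Without s491 its difference was 1.75.

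Of the 10 pituitary genes listed, 4 were tested, all higher, with a median of 2.51, which was 3.90 without s640. Their summed level was 2.57 to 303 CPM with CP2 and 1.15 to 21.1 CPM with vehicle. Cga had 1, 14, 79, 40 and 51 counts with CP2 and 13, 1, 35, 3 and 0 with vehicle (1.58 ± 1.26). Lhb had 28, 21, 45, 46 and 62 counts with CP2 and 23, 33, 27, 22 and 10 with vehicle (0.60 ± 0.51). In both genes s660 had more counts than s491, unlike in Prl and Gh. Pitx1 had 0 counts in every CP2 library and Ghrhr at most 1 count in any library. Whether pituitary tissue was attached to some pieces was not tested.

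Genes of myelin and of the oligodendrocytes that make it were higher with CP2. Opalin, a membrane protein of oligodendrocytes (chromosome 19, 41062474 to 41077113), was at 33.3, 40.2, 86.2, 38.9 and 54.6 CPM with CP2 and at 38.6, 33.8, 24.3, 20.3 and 32.1 CPM with vehicle (0.76 ± 0.24, edgeR adjusted p = 0.341). The CP2 libraries s492 and s664 were highest, and s454 was the 1 CP2 library within the vehicle range. Pllp, which encodes plasmolipin, a myelin membrane protein (chromosome 8, 94674895 to 94696242), was at 54.0, 57.8, 114, 60.3 and 79.5 CPM against 49.1, 41.9, 41.8, 38.8 and 48.7 CPM, with no overlap (0.73 ± 0.16, edgeR adjusted p = 0.296). Mag, the myelin-associated glycoprotein, was at 197 to 379 against 168 to 218 CPM (0.46 ± 0.15), and Enpp6, a phosphodiesterase of newly formed oligodendrocytes, at 10.9 to 26.8 against 7.52 to 13.4 CPM (0.72 ± 0.21). Without s492 Opalin was at 0.48 and Enpp6 at 0.44.

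All 24 genes of the myelin list, which does not hold Pllp, were higher, with a median of 0.36. Of them 13 had an unadjusted p under 0.05, but none had groups without overlap. Mbp, of compact myelin, was at 0.37 ± 0.15, while Mobp (0.03 ± 0.14), Hapln2 (0.04 ± 0.13) and Ermn (0.09 ± 0.16) lay near 0. The list score was 7.62 in s492, 6.92 to 7.31 in the other CP2 libraries and 6.70 to 7.0 with vehicle, and the summed level was 11448 to 17673 against 9560 to 11604 CPM. Without s492 the median was 0.23 and Mbp was at 0.24. The median was 0.36 with the 2 regional scores as covariates. Of 7 oligodendrocyte precursor genes 6 were higher (median 0.08, from 0.04 to 0.18 when each library was left out).

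Cholesterol synthesis, the pathway that feeds the making of myelin membrane, had 15 of 17 genes higher with a median of 0.20. Of them 7 had an unadjusted p under 0.05, among them Lss, Fdps, Dhcr7, Pmvk and Sqle. Lss, the lanosterol synthase, was at 47.3 to 61.7 CPM with CP2 and 39.7 to 51.4 CPM with vehicle (0.25 ± 0.10), and Fdps, the farnesyl diphosphate synthase, at 56.9 to 74.3 against 53.0 to 62.5 CPM (0.22 ± 0.09). Both sets of values overlapped. With the 2 regional scores as covariates the median of the list was 0.08.

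Microglial genes were higher on average, most of all in 1 library. Of 23 genes of disease-associated microglia, the state described around plaques and in ageing white matter, 22 were higher with a median of 0.26, and 4 had an unadjusted p under 0.05: Axl, Cd63, Gpnmb and Csf1. Gpnmb, a lysosomal glycoprotein, was at 20.9, 46, 68.8, 18.5 and 35.5 CPM with CP2 and at 18.3, 32.1, 22.7, 23.6 and 13.2 CPM with vehicle (0.79 ± 0.33, edgeR adjusted p = 0.445). Its 2 lowest CP2 libraries lay within the vehicle range. The list score was 6.83 in s492, 5.85 to 6.29 in the other CP2 libraries, 6.35 in vehicle s640 and 5.78 to 5.93 in the other vehicle libraries, and the median was 0.12 without s492. Also without s492, Gpnmb was at 0.46, Cd63 at 0.21, Csf1 at 0.19 and Axl at 0.16. Homeostatic microglial genes were higher for 16 of 19 (median 0.16, and 0.03 without s492), with Tmem119 at 0.05 ± 0.20 and P2ry12 at -0.12 ± 0.13. Canonical inflammation genes (10 of 17 higher, median 0.06, but -0.09 without s492 and 0.16 without s640) had 0 members at an unadjusted p under 0.05, with the cytokine genes Tnf and Il1b at -0.03 ± 0.42 and -0.01 ± 0.33. Interferon response genes (12 of 16 higher, median 0.11) likewise had 0, and their median was 0.03 without s664 and 0.19 without s454.

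Endothelial and pericyte genes were higher for all 20 members, by small amounts, with a median of 0.21. Notch3, the mural cell Notch receptor, was at 9.91 to 19.8 CPM with CP2 and 5.26 to 10.3 CPM with vehicle (0.64 ± 0.21, edgeR adjusted p = 0.348). Tek, the endothelial angiopoietin receptor, was at 16.3 to 18.1 CPM in 4 CP2 libraries, 9.52 CPM in s454 and 8.28 to 12.8 CPM with vehicle (0.50 ± 0.18). Within L number 5 only 12 of the 20 were higher, with a median of 0.04. Haemoglobin transcripts and Alas2, of blood, had a median of -0.01, from -0.41 without s491 to 0.24 without s641. Meningeal genes had one of 0.09 with 8 of 15 higher, from -0.09 without s664 to 0.24 without s643.

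Of 16 astrocyte genes 13 were higher (median 0.07, from 0.04 to 0.14 when each library was left out). The water channel gene Aqp4 was at 406 CPM in s492 and 166 to 232 CPM in the other CP2 libraries, against 157 to 236 CPM with vehicle (0.41 ± 0.18, but 0.15 without s492), and the glutamate transporter gene Slc1a2 was at -0.15 ± 0.08. Reactive astrocyte genes were split, 11 of 19 higher with a median of 0.07 (0.00 without s491 and 0.15 without s642). Vim, vimentin, was at 66.3 to 175 against 53.9 to 91.9 CPM (0.65 ± 0.29), with s492 highest among CP2 and s640 highest among vehicle, and Gfap was at 0.36 ± 0.21. Without s492 Vim was at 0.37 and Gfap at 0.18.

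The lists of excitatory synapse, presynaptic vesicle and GABA neuron genes had medians near 0, with larger differences in single members. Gria2, the AMPA receptor subunit that sets calcium permeability (chromosome 3, 80681450 to 80802835), was at 385 to 630 CPM with CP2, lowest in s492, and at 666 to 750 CPM with vehicle, without overlap (-0.40 ± 0.12, edgeR adjusted p = 0.341). Of 22 excitatory synapse genes 5 were higher, with a median of -0.10, and the postsynaptic genes Homer1 (-0.41 ± 0.17) and Gria3 (-0.28 ± 0.13) had an unadjusted p under 0.05, as Gria2 had. Without s492 Homer1 was at -0.27, Gria3 at -0.18 and the list median at -0.02, and without s640 the median was -0.17. Of 15 genes of GABA neurons 12 were lower, among them Reln (-0.56 ± 0.16), the reelin gene, and Gad2 (-0.26 ± 0.12), a GABA-synthesizing enzyme. In this list 3 genes had an unadjusted p under 0.05, all lower, and the median was -0.11. That median was -0.07 without s642 or s643. Presynaptic vesicle genes had a median of 0.04.

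Cnr1, the cannabinoid CB1 receptor gene (chromosome 4, 33924593 to 33948831), was at 150, 174, 119, 165 and 154 CPM with CP2 and at 235, 161, 233, 214 and 247 CPM with vehicle. The 1 vehicle library inside the CP2 range was s640 (-0.52 ± 0.12, edgeR adjusted p = 0.296).

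Of the cortical layer genes, the layer 4 factor Rorb was at 41.8 to 48.6 CPM with CP2 and 29.7 to 40.4 CPM with vehicle, without overlap (0.34 ± 0.10), while the upper-layer list lay near 0 (3 of 9 higher, median -0.09). Of 15 deep-layer genes 6 were higher (median -0.04, and -0.14 without s491), and Bcl11b, which striatal neurons express too, was at 37.8 to 56.4 against 48.9 to 114 CPM (-0.64 ± 0.18). The hippocampal lists had medians of 0.18 for pyramidal neurons (6 of 10 higher) and -0.02 for the dentate gyrus (3 of 8 higher). Without s491 the pyramidal median was 0.08, and without s643 it was 0.11. For the dentate list the median was 0.38 without s640.

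The genes of complex I, the target of the compound, lay close to 0. Of 37 nuclear-encoded subunits 12 were higher with CP2, with a median of -0.04, a range of -0.19 to 0.15 and 0 members at an unadjusted p under 0.05 in either direction. Ndufs1, the large iron-sulfur subunit, averaged 239 CPM with CP2 and 273 CPM with vehicle (-0.19 ± 0.10). Ndufv1, which holds the NADH-binding site, averaged 152 against 142 CPM (0.10 ± 0.09), and Ndufb7, an accessory subunit, 32.9 against 29.6 CPM (0.15 ± 0.22). The median SE was 0.10, and for 35 of the 37 genes the 95% interval lay within 0.5 of 0 on the log2 scale. The widest bounds were -0.41 for Ndufv2 and 0.63 for Ndufb7. The list score was 6.14 to 6.36 with CP2 and 6.12 to 6.49 with vehicle, so the CP2 libraries lay within the vehicle range. The 37 genes of the mitochondrial genome had 0 counts in every library and could not be compared.

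**Figure D3:**
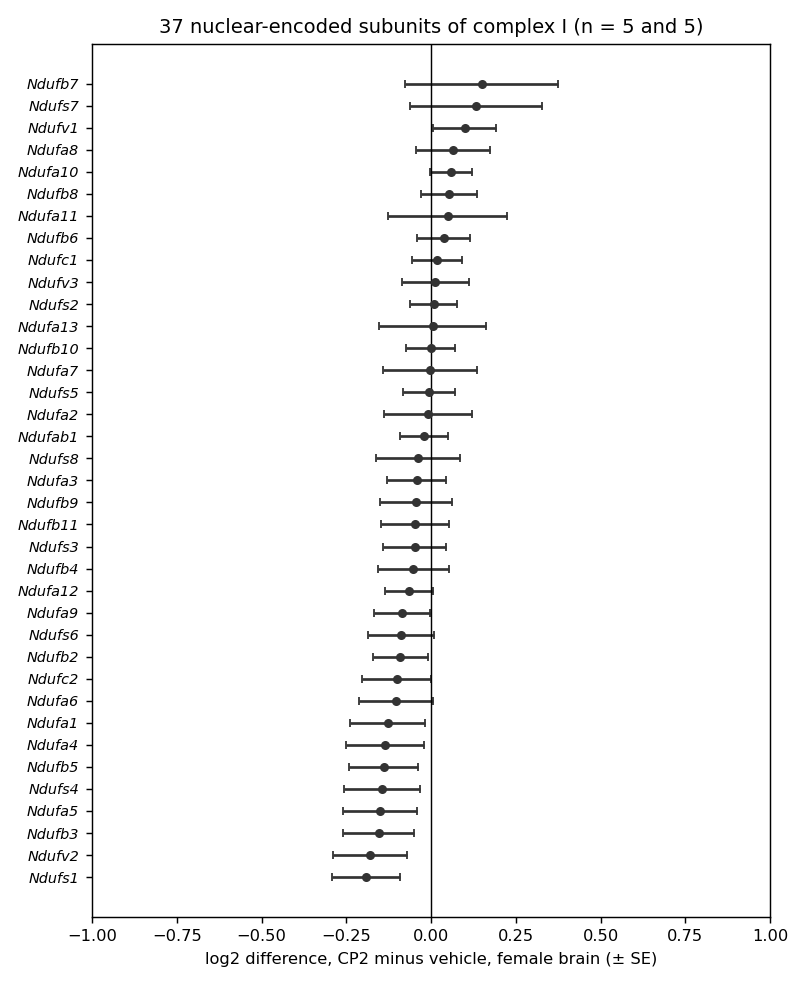
Log2 difference of CP2 minus vehicle in female brain (horizontal axis, points, with ± SE as bars) for the 37 tested nuclear genes of complex I subunits, in order of the difference. The points run from -0.19 to 0.15, and most SE bars reach or cross 0.

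Assembly factors of complex I had a median of -0.03 (5 of 14 higher). Ndufaf4, an assembly factor, was at 31.3 to 38.5 CPM with CP2 and 34.8 to 48.8 CPM with vehicle (-0.29 ± 0.11, edgeR adjusted p = 0.394), and Ndufaf7, which methylates a complex I subunit, was at 36.2 to 39.7 against 40.7 to 43.4 CPM without overlap (-0.14 ± 0.06). Complexes II to V and cytochrome c had 15 of 39 genes higher, a median of -0.04 and 0 members at an unadjusted p under 0.05.

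Lists of pathways known to respond to respiratory chain inhibition also had medians near 0. Mitochondrial biogenesis and AMPK genes had 9 of 21 higher (median -0.01), with the coactivator gene Ppargc1a at -0.01 ± 0.08 and the AMPK catalytic subunit gene Prkaa1 at 0.01 ± 0.08. Genes of the integrated and mitochondrial stress response had 7 of 18 higher (median -0.03), with the transcription factor gene Atf4 at -0.03 ± 0.06 and the asparagine synthetase gene Asns at -0.11 ± 0.07. Antioxidant genes had a median of 0.00 (8 of 16 higher), glycolytic genes 0.08 (14 of 22) and genes of the tricarboxylic acid cycle 0.00 (7 of 14), each with 0 members at an unadjusted p under 0.05. Among 19 genes of autophagy and mitophagy 12 were higher (median 0.06). In this list 4 higher genes and 1 lower gene had an unadjusted p under 0.05, where 5.05% and 4.84% of all genes tested had. Its largest difference was that of Tfeb, at 2.97 to 6.62 CPM with CP2 and 2.76 to 4.47 CPM with vehicle (0.50 ± 0.22). Atg7, the activating enzyme of autophagy, was at 21.6 to 29.2 against 18.9 to 24 CPM (0.30 ± 0.10), and Atg12, a ubiquitin-like protein activated by it, at 61.9 to 67.4 against 71.6 to 82.8 CPM, lower without overlap (-0.24 ± 0.07).

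Of the genes linked to amyloid and tau, 8 of 13 were higher with a median of 0.06. Of these 13 genes 2 were higher without overlap, where 1.03% of all genes tested were. Both encode subunits of gamma-secretase, the protease that releases amyloid-beta. Aph1a was at 28.5 to 31.4 against 24.3 to 28.3 CPM (0.17 ± 0.07). Ncstn was at 70.4 to 74.6 against 61.1 to 69.0 CPM (0.11 ± 0.06, edgeR unadjusted p = 0.112). Clock genes had a median of 0.03, with the activators Clock (-0.23 ± 0.08) and Arntl (-0.26 ± 0.12) on the lower side at an unadjusted p under 0.05. Immediate early genes had a median of 0.01, from -0.23 without s664 to 0.21 without s631, and chaperones one of -0.02. Foxo1, the insulin-regulated transcription factor gene, was at 31.3 to 39.2 CPM with CP2 and 39.5 to 56.0 CPM with vehicle (-0.41 ± 0.13, edgeR adjusted p = 0.341), without overlap, and its list of growth factor and insulin genes had a median of -0.02.

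**Figure D4:**
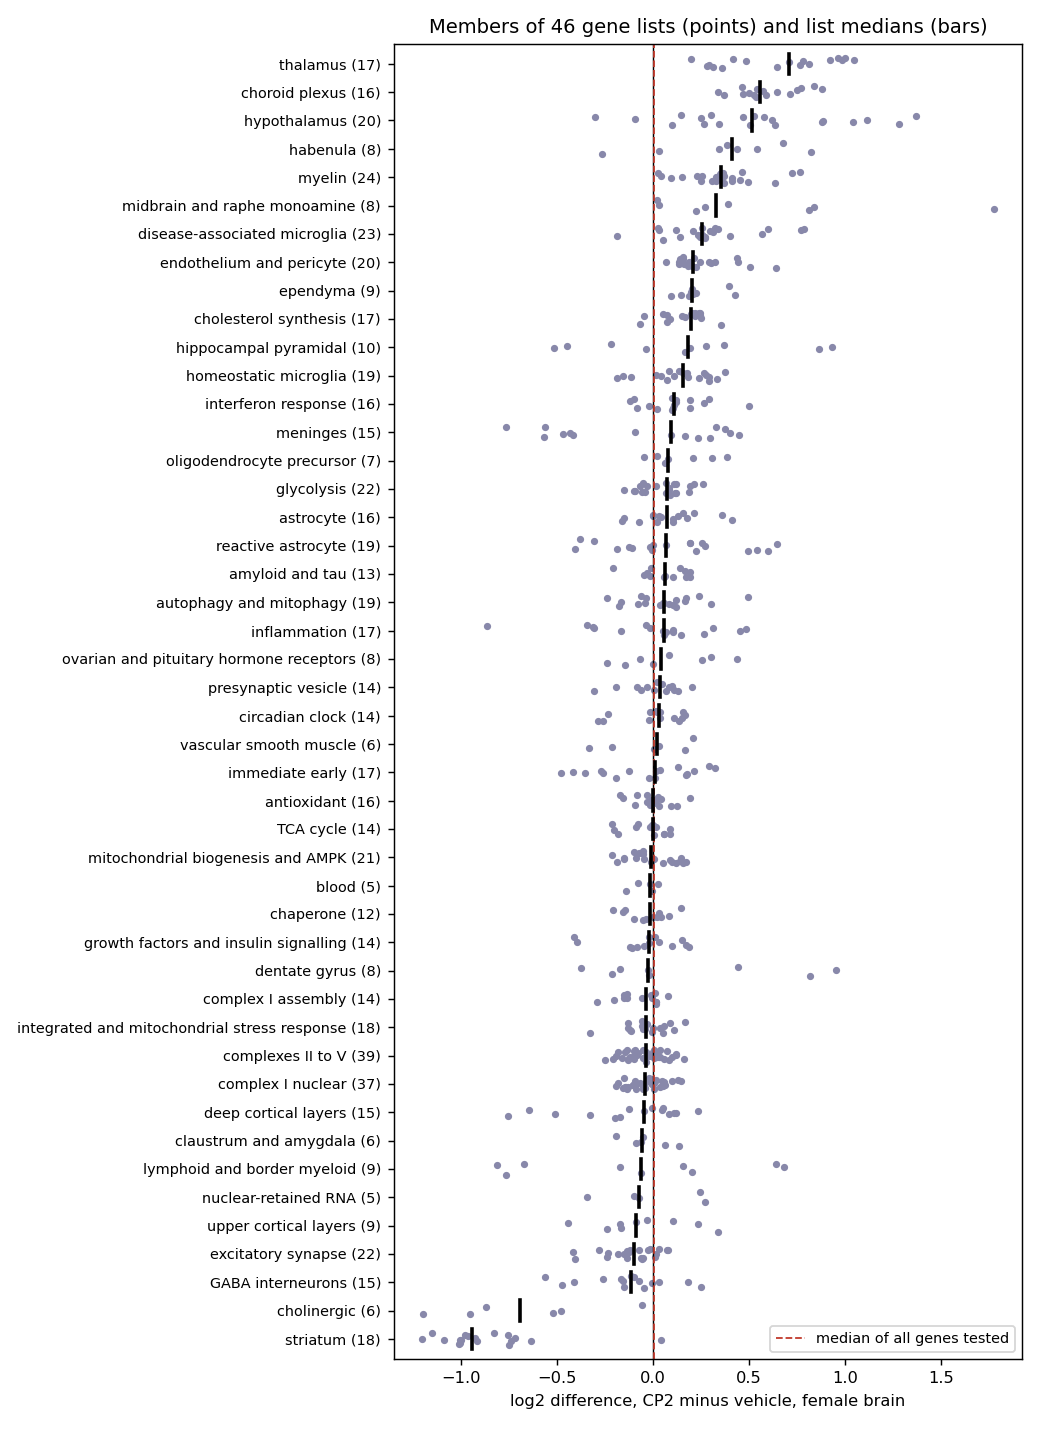
Log2 difference of CP2 minus vehicle in female brain (horizontal axis) for each tested member (points) of 46 gene lists, with the number of members in parentheses, the list median as a black bar and the median of all genes tested, 0.008, as a dashed line. Thalamic and choroid plexus genes lie to the right, cholinergic and striatal genes to the left, and the respiratory chain lists are centred near 0.

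The protein-coding genes whose groups did not overlap and whose p was smallest, 12 in each direction, crossed several of these groups. The higher genes were Fam163a, Pllp, Accs, Fbxo40, Tmem125, Nrbp2, Fhdc1, Kcng4, Slc25a18, Eps8l2, Chrna4 and Prom2, with differences of 0.42 to 1.13. Fam163a (chromosome 1, 156075966 to 156205026) was at 10.5, 9.56, 10.4, 8.87 and 10.6 CPM with CP2 and at 6.85, 7.15, 6.58, 7.69 and 7.40 CPM with vehicle (0.49 ± 0.10). Unlike the thalamic genes it had no library that stood apart, and its difference was 0.52 with the 2 regional scores as covariates. Chrna4, the nicotinic receptor alpha4 subunit gene, was at 49.6 to 59.2 against 33.6 to 42.7 CPM (0.46 ± 0.12). Slc25a18, a mitochondrial glutamate carrier gene, was at 56.6 to 78.0 against 43.4 to 54.6 CPM (0.42 ± 0.10).

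The lower genes were Lrrc10b, Atp6ap1l, Drd1a, Mctp1, B3gnt2, Arpp21, Ppp1r1b, Ccng2, Ido1, Mme, Ano3 and Slc25a14, with differences of -1.30 to -0.29. Lrrc10b, a leucine-rich repeat gene (chromosome 19, 10455371 to 10457447), was at 31.3, 22, 21.5, 27.4 and 28.9 CPM against 52.1, 33.8, 80.0, 44.4 and 112 CPM (-1.30 ± 0.26). Ido1, an enzyme that opens the tryptophan ring, was at 2.79 to 3.47 against 4.37 to 12.4 CPM (-1.21 ± 0.30), and Mme, the peptidase neprilysin, which degrades amyloid-beta among other peptides, at 17.5 to 19.1 against 22.9 to 49.99 CPM (-0.91 ± 0.23). In these 3 genes s640 was the lowest vehicle library and s643 the highest, as for Drd1a.

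Slc25a14, a carrier of the inner mitochondrial membrane (ENSMUSG00000031105, chromosome X, 48623413 to 48662294), behaved differently in its spread. It was at 44.9, 45, 44.1, 45.6 and 45.1 CPM with CP2 and at 56.4, 53.7, 54.2, 55.0 and 55.1 CPM with vehicle. Both groups were narrow, and s640 and s643 lay with the other vehicle libraries. The difference was -0.29 ± 0.07, or 1.22-fold lower, from -0.30 to -0.28 when any 1 female library was left out and -0.19 with the 2 regional scores as covariates. All 24 of these genes had an edgeR adjusted p of 0.296.

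**Figure D5:**
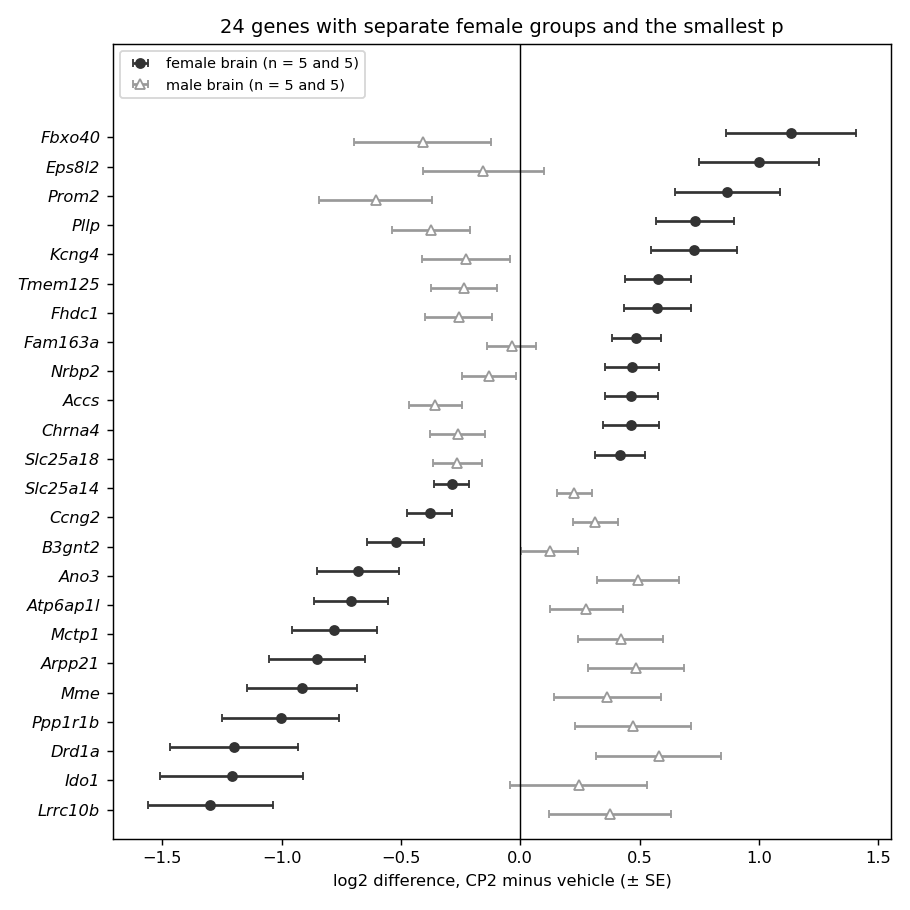
Log2 difference of CP2 minus vehicle (horizontal axis, ± SE as bars) for the 24 genes whose female groups did not overlap and whose p was smallest, in female brain (filled circles) and in male brain (open triangles), 5 and 5 libraries each. The female values run from -1.30 to 1.13, and each male value lies on the other side of 0, in some genes by less than its SE.

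In male brain, fitted in the same model with its own 5 CP2 and 5 vehicle libraries, the 12 genes that were higher in females were all lower and the 12 that were lower in females were all higher. The difference between the sexes was tested as an interaction, and no library is shared between the 2 sides. Its adjusted p in edgeR was 0.0505 to 0.109 for these 24 genes, so none passed. Slc25a14 was at 0.23 ± 0.07 in males, and Drd1a at 0.58 ± 0.26. Some male values were smaller than their SE, as for Fam163a (-0.04 ± 0.10), Eps8l2 (-0.16 ± 0.25) and Ido1 (0.24 ± 0.29). The 24 genes were chosen by their female values, and the share of all genes tested with opposite signs is not reported here. The list medians in males were 0.50 for striatal genes, -0.69 for thalamic genes, -1.77 for hypothalamic genes and -0.10 for myelin genes. Not every list had the opposite sign in males. The male median was above 0, as in females, for choroid plexus (0.05), endothelial and pericyte (0.06), homeostatic microglial (0.10) and hippocampal pyramidal genes (0.42). Prl was also higher with CP2 in males (4.56 ± 2.26). The L number was 2 or 6 in the male CP2 libraries and 1 or 2 in the male vehicle libraries. Treatment and L number are therefore largely confounded in males. For the male values and the interaction, an effect of CP2 cannot be told apart from one of whatever the L number stands for.

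The 1 gene called in the interaction, of 19316 tested (0.00518%), was Ebf3, one of the early B cell transcription factors (gene ENSMUSG00000010476, chromosome 7, 137193673 to 137314445). In females it was at 6.41, 8.48, 9.41, 5.09 and 7.09 CPM with CP2 and at 4.20, 4.40, 3.86, 4.91 and 1.20 CPM with vehicle, without overlap and with s643 lowest (0.97 ± 0.30). In males its difference was -2.01 ± 0.31. The female minus the male effect was 2.98 ± 0.44 (edgeR adjusted p = 0.0162). The call was lost with the 2 regional scores as covariates (difference 1.40, adjusted p = 0.713), with the L number as a covariate (3.03, adjusted p = 0.329), without a low-count filter (adjusted p = 0.0510) and without s492 (0.0509) or s641 (0.0503).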

How the data were processed

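Bulk RNA-seq of 10 female and 10 male brain libraries was used, prepared from 200 ng of total RNA with an unstranded TruSeq kit and read as 101-bp pairs, per the labels' protocols. Reads of overlapping antisense genes are therefore not separated. The authors deposited whole-number counts per gene, which carry no normalization, and FPKM values. Tools named are bcl2fastq, STAR 2.6.1c and featureCounts of Subread on mm10, per the submitters' processing notes, with no settings stated. The tests used counts alone, and the deposited FPKM served as a check (proportional to count over length within 0.320% for 99% of values).

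edgeR 4.0.16 (R 4.3.3) was fitted to all 20 brain libraries with 1 mean per group (filterByExpr, TMM, robust quasi-likelihood test), keeping 19316 of 43346 genes (common biological coefficient of variation 0.170, residual degrees of freedom 16). Adjusted p-values are Benjamini-Hochberg values. DESeq2 1.42.0 and limma 3.58.1 (voom) were alternatives, with other scalings, filters, covariates and each female library left out. Scripts were tested on simulated data. List scores are mean log2 CPM with a prior count of 2, and 95% intervals use the SE and a t quantile at 16 degrees of freedom. No 2 count columns were identical. Total counts were 37.8 to 52.3 M (mega) per female library.

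The libraries, the 49 gene lists (735 of 740 symbols found) and the rules were chosen with earlier results of these data known, so list counts are descriptions. Named genes were those called, the 12 per direction with the smallest p among protein-coding genes of at least 1 CPM whose groups do not overlap, the 3 members of each list with the smallest p and members without overlap, pituitary and sex-check genes, and genes called in the interaction. Other members named in the text were chosen by their role, after their values were seen. Some members counted in the lists are not reported here by name.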

Additional observations from a re-analysis of the deposited data

Results flagged for a closer look

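Of 250 groups of 5 libraries examined, list scores and CPM of the named genes in each female group, 17 held a library whose gap to the nearest other exceeded Dixon's 95% critical value of 0.71 of the group's range; chance flags about 1 in 20 groups. Vehicle library s640 accounted for 6 of them. Its scores were 3.41 for dentate gyrus (others 2.55 to 2.78), 6.35 for disease-associated microglia (5.78 to 5.93) and 2.58 for inflammation (1.87 to 2.01). Its levels were 12.5 CPM for Hdc (3.30 to 4.67), 91.9 CPM for Vim (53.9 to 64.7) and 9.19 CPM for Plekhd1, a gene named for its pleckstrin homology domain (4.03 to 5.44). Vehicle s643 was low for the hypothalamic score at 0.509 (2.50 to 3.02) and for Ebf3 at 1.20 CPM (3.86 to 4.91).

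Among the CP2 libraries, s492 was low for the claustrum and amygdala score at 3.48 (3.92 to 4.02) and for Arpp21 at 251 CPM (331 to 349), and high for Aqp4 at 406 CPM (166 to 232). Library s491 was high for Pomc at 34.5 CPM (1.0 to 5.92) and for Ndufaf4 at 38.5 CPM (31.3 to 32.3). Library s664 was high for Drd1a at 46.6 CPM (36.4 to 38.7) and for Ncstn at 74.6 CPM (70.4 to 71.5). Library s660 was high for Lhx8 at 4.70 CPM (1.36 to 1.89), and s454 was low for Tek at 9.52 CPM (16.3 to 18.1). The CP2 minus vehicle difference of Ebf3 differed between the sexes by 2.98 on the log2 scale in the interaction test, where the male treatment is largely confounded with the L number.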

How the results depend on the processing

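The female count of 0 genes became 45 with DESeq2, 95 with limma-voom and 3 in the libraries with L number 5 (Gm4596, Gm15361 and Filip1, all lower), and ranged from 0 to 18 when each female library was left out, with 18 without s640. It stayed at 0 under the other scalings, filters, the 10 female libraries alone and both covariate fits. The interaction count of 1 was 52 with upper-quartile scaling, 707 with DESeq2, 2013 with limma-voom, 125 with a minimum of 1 CPM in 5 libraries, 2 other genes, both lower, with the L number as a covariate, and 0 without a filter or with the striatal and thalamic scores. With a female library left out it ranged from 0 to 356: 0 without s492 or s641, 58 without s491, 356 without s640 and 2 without s664 or s631. With both scores as covariates the striatal median moved to 0.041 and the thalamic one to 0.090, and Adora2a (0.18) and Drd2 (0.076) changed sign, since the scores hold these genes; the cause of the other shifts was not tested. Over 20 alternatives and 78 named genes, 1496 of 1558 values kept sign and side of the threshold, 60 passed it and 2 changed sign. Of 940 list medians 920 moved by less than 1 SD between libraries. No paired analysis was possible because no title number is shared by a female brain CP2 and a female brain vehicle library. Leaving out 1 library, the complex I median ran from -0.09 to -0.0025, that of complexes II to V from -0.08 to 0.01 and that of glycolysis from 0.04 to 0.15. Of the 10 pituitary genes listed, 6 fell under the low-count filter.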

Other observations

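Some listed genes with an unadjusted p under 0.05 lay outside the groups described above. Pgr, the progesterone receptor gene, averaged 31.2 CPM with CP2 and 36.9 CPM with vehicle (-0.24 ± 0.10), while the oestrogen receptor gene Esr1 was at 0.08 ± 0.32. Among genes of border myeloid cells, the scavenger receptor gene Cd163 averaged 1.86 against 3.16 CPM (-0.76 ± 0.26), and the mannose receptor gene Mrc1 was at -0.06 ± 0.28. Fmod, an extracellular matrix proteoglycan gene listed with the meninges, averaged 11.4 against 19.4 CPM (-0.76 ± 0.32). Foxa1, a transcription factor gene of midbrain dopamine neurons, averaged 0.481 against 0.141 CPM (1.77 ± 0.64, and 2.68 without s640). Fosb, an immediate early gene, was at -0.42 ± 0.19 and the hippocampal CA2 gene Rgs14 at -0.52 ± 0.20, or -0.30 without s643. None passed the adjusted threshold in edgeR.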
